A study of Saccharomyces cerevisiae EC1118 with 12 samples.

Results

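The comparison described here sets Saccharomyces cerevisiae cultures sparged with 5% oxygen against cultures sparged with 1% oxygen. It holds 3 arrays of each group, 6 of the 12 arrays of the series, and all 5449 genes that the platform annotation names. It asks which transcripts differ between a low and a higher oxygen supply, once some oxygen is present. The strain is EC1118, a commercial wine yeast, with no mutation named in the labels. All groups were grown to steady state in chemostats that were diluted at 0.1 per hour and held at pH 3.5. The medium was MS300, an artificial grape must, adapted so that nitrogen limited growth. The groups differed in the gas, which held 5% or 1% oxygen in nitrogen, and the other 6 arrays came from cultures given 20% oxygen or nitrogen alone. The labels give the dissolved oxygen in conflicting ways, as 2.7 or 4 micromolar at 5% oxygen and as 1.2 or 0.8 micromolar at 1% oxygen, so the groups are named by their gas. Nothing in them tells if replicate arrays stand for different chemostat runs, and the p-values may therefore measure technical spread only.

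Yeast senses oxygen largely through heme and sterols, because both are built by enzymes that use molecular oxygen. Heme activates Hap1, which drives the gene of the repressor Rox1, and Rox1 keeps many hypoxic genes low in air. When sterols run short, the factor Upc2 turns on genes for sterol import and for the DAN and TIR mannoproteins of the anaerobic cell wall. Heme also activates respiratory genes through Hap1 and the complex that holds Hap4.

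No gene passed the test between 5% and 1% oxygen. Of 5449 genes, 0 were called by limma at an adjusted p under 0.05 (0%), and the smallest adjusted p was 0.12. At an unadjusted p under 0.05 there were 265 genes (4.86%), of which 159 were higher at 5% oxygen (2.92%) and 106 were lower (1.95%). The threshold of 0.05 by itself passes 5% of genes where no gene differs. The 7 genes with the smallest adjusted p, from 0.12 to 0.186, were all lower at 5% oxygen: TIR2, PBI1, FHN1, ADH7, HES1, IZH2 and AUS1. Levels and differences below are on the log2 scale of the deposited values, where 1 is a 2-fold difference, and errors are the standard error of the fit for differences and the SD of 3 arrays for means.

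The typical gene differed little. The median difference was 0.05, and the 5th and 95th percentiles were -0.45 and 0.55. For 4019 genes (73.8%) the 95% interval of the difference lay wholly between -1 and 1. The standard error had a median of 0.26. A mean at least 2-fold apart was found for 61 genes, 35 higher and 26 lower at 5% oxygen. In 358 genes (6.57%) every 5% array lay above every 1% array, and in 199 genes (3.65%) every 5% array lay below. Both conditions held for 38 genes, 22 higher and 16 lower, and 12 of these were dim, that is among the lowest 25% of genes by mean level.

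**Figure D1:**
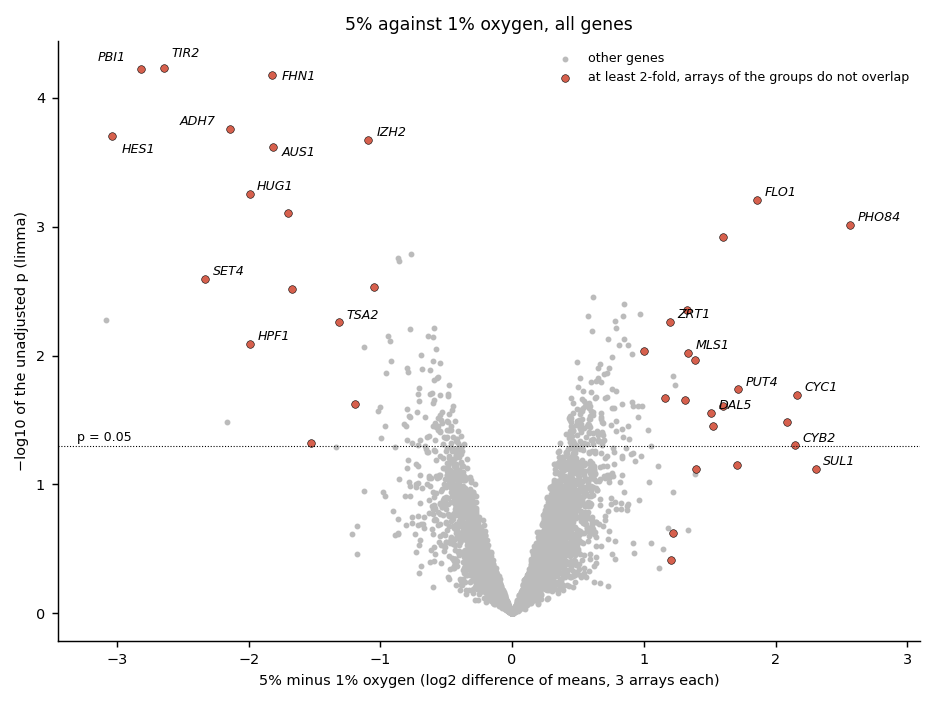
Difference between 5% and 1% oxygen for each gene (horizontal axis, log2 difference of means of 3 arrays each) against -log10 of the unadjusted p from limma (vertical axis). Red points are the genes at least 2-fold apart whose arrays did not overlap. The genes with the smallest p lie on the left, where 5% oxygen was lower, and the dotted line marks an unadjusted p of 0.05.

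Among the 6 arrays, 1% oxygen array 3 stood apart. Over genes, the SD of its distance to the group mean was 0.55, against 0.26 to 0.40 for the other 5 arrays. It correlated at 0.94 with the rest of its group, and the others did so at 0.97 to 0.987. Its distance to the mean of all 12 arrays also sloped with gene length, by -0.20 on the log2 scale per doubling of length. The slopes were -0.02 and -0.01 in the other 1% arrays and -0.06 to -0.03 in the 5% arrays. Among the 5% arrays, array 2 was the highest of the 3 in 12 of the 16 genes that were at least 2-fold lower with no overlap. Without 5% oxygen array 2, limma called 6 genes, all lower at 5% oxygen: TIR2, AUS1, PBI1, FHN1, HES1 and SET4. Array 2 was the highest 5% array in each of them, so leaving it out widens their differences by construction. It was no outlier, with the smallest SD (0.26) and highest correlation (0.987) of the 6 arrays. Without 5% array 1 or 3, limma called 0 genes (smallest adjusted p 0.711 and 0.242). With 1% array 3 and 5% array 2 both left out, an alternative chosen after seeing the data, 7 genes were called. These were TIR2, AUS1, PBI1, FHN1, HES1 and HUG1, all lower, and SHC1, a regulator of chitin synthase, which was higher.

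Sterol uptake and anaerobic cell wall genes included 2 of the 7 genes with the smallest p, TIR2 and AUS1. TIR2, a mannoprotein of the Tip1 family, had levels of 9.19, 9.57 and 7.63 in 5% arrays 1 to 3, against 11.65, 11.83 and 10.84 in the 1% arrays. The groups did not overlap, and array 3 was the lowest of each group. Its mean was 8.80 ± 1.03 at 5% oxygen and 11.44 ± 0.53 at 1% oxygen, a difference of -2.64 ± 0.44 (adjusted p = 0.12). TIR4, another mannoprotein of this family, had 6.86, 9.02 and 6.29 at 5% oxygen against 11.40, 11.25 and 8.76 at 1% oxygen. Its difference was larger, -3.08 ± 0.91, but 5% array 2 lay above 1% array 3 (adjusted p = 0.884). DAN1, also a cell wall mannoprotein, had 9.46, 11.68 and 8.94 at 5% oxygen against 12.31, 12.59 and 11.67 at 1% oxygen. The groups barely overlapped, again between 5% array 2 and 1% array 3, and the difference was -2.16 ± 0.90 (adjusted p = 0.884). TIR1 differed by -1.33 ± 0.62, DAN4 by -1.13 ± 0.66 and TIR3 by -0.89 ± 0.73, each with overlapping arrays. TIR3 was -0.16 without 5% array 3 and -1.64 without 1% array 3.

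AUS1 encodes an ABC transporter that takes up sterols when the cell cannot make them. Its levels were 6.99, 8.14 and 6.82 at 5% oxygen against 9.30, 9.23 and 8.86 at 1% oxygen. No 5% array reached the lowest 1% array, and the difference was -1.82 ± 0.35 (adjusted p = 0.186). PDR11, a second sterol importer, differed by -1.004 ± 0.392 with overlapping arrays. UPC2, the sterol-sensing activator of these genes, had 5.70, 6.38 and 5.00 at 5% oxygen against 6.61, 6.73 and 6.63 at 1% oxygen. The 1% arrays of UPC2 lay close together and above all 5% arrays, and the difference was -0.96 ± 0.33 (adjusted p = 0.884). Without 5% array 3 it was -0.62 for PDR11 and -0.61 for UPC2. SUT1, a regulator that also promotes sterol uptake, lay under the dim limit in both groups and differed by 0.26 ± 0.42.

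Over the list of sterol uptake genes and DAN and TIR mannoproteins, 11 of 12 members were lower at 5% oxygen, with a median difference of -1.23, against 0.05 over all genes. None was called, 7 had an unadjusted p under 0.05 and were lower, against 1.95% of all genes, and 4 had no overlap (TIR2, AUS1, UPC2 and PAU24), against 3.65% of all genes. The list's median level was 6.92, 8.58 and 6.55 in 5% arrays 1 to 3, against 9.85, 9.98 and 8.81 in the 1% arrays. Leaving out any 1 of the 6 arrays gave list medians from -1.65 to -0.96.

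Other genes with small p and lower means were in no common list. HES1, a member of the oxysterol-binding protein family, had 5.09, 7.30 and 4.48 at 5% oxygen against 8.59, 8.59 and 8.80 at 1% oxygen. The 1% arrays spanned a narrow range, while 5% array 2 stood well above the other 5% arrays, yet below every 1% array. Arrays 1 and 3 of 5% oxygen lay under the dim limit of 5.84. The mean was 5.62 ± 1.48 at 5% oxygen and 8.66 ± 0.12 at 1% oxygen, a difference of -3.04 ± 0.58 (adjusted p = 0.186). FHN1, a membrane protein related to the eisosome protein Nce102, had 6.24, 7.13 and 6.20 at 5% oxygen against 8.44, 7.94 and 8.66 at 1% oxygen. These groups did not overlap either, with a difference of -1.82 ± 0.31 (adjusted p = 0.12). IZH2, a membrane protein of the progestin and adiponectin receptor family, had 9.72, 10.31 and 9.84 at 5% oxygen against 10.98, 11.11 and 11.06 at 1% oxygen. Its difference was smaller, -1.09 ± 0.21, but its spread was small as well (adjusted p = 0.186), and its relative IZH4 differed by -1.19 ± 0.46.

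PBI1 had 6.38, 8.08 and 6.02 at 5% oxygen against 9.61, 9.40 and 9.91 at 1% oxygen. It repeated the order seen for HES1, with 5% array 2 the highest of its group and no overlap, and differed by -2.82 ± 0.47 (adjusted p = 0.12). ADH7, an alcohol dehydrogenase that uses NADPH, had 4.46, 4.75 and 4.03 at 5% oxygen against 5.92, 6.38 and 7.38 at 1% oxygen. All 5% arrays of ADH7 were under the dim limit of 5.84 and all 1% arrays above it, and the difference was -2.14 ± 0.40 (adjusted p = 0.186). HUG1, an inhibitor of ribonucleotide reductase, had 5.85, 7.25 and 5.93 at 5% oxygen against 8.47, 8.96 and 7.57 at 1% oxygen. The groups did not overlap, with a difference of -1.99 ± 0.43 (adjusted p = 0.375). SET4, a SET-domain protein, had 4.37, 6.31 and 3.56 at 5% oxygen against 7.23, 7.07 and 6.94 at 1% oxygen, a difference of -2.33 ± 0.61 (adjusted p = 0.863). SET4 was dim by its mean over all arrays, although its 1% arrays lay above the limit. HPF1, a mannoprotein that reduces protein haze in wine, differed by -1.99 ± 0.63, and the peroxiredoxin gene TSA2 by -1.31 ± 0.39 (adjusted p = 0.884 each). Both had no overlap between the groups.

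**Figure D2:**
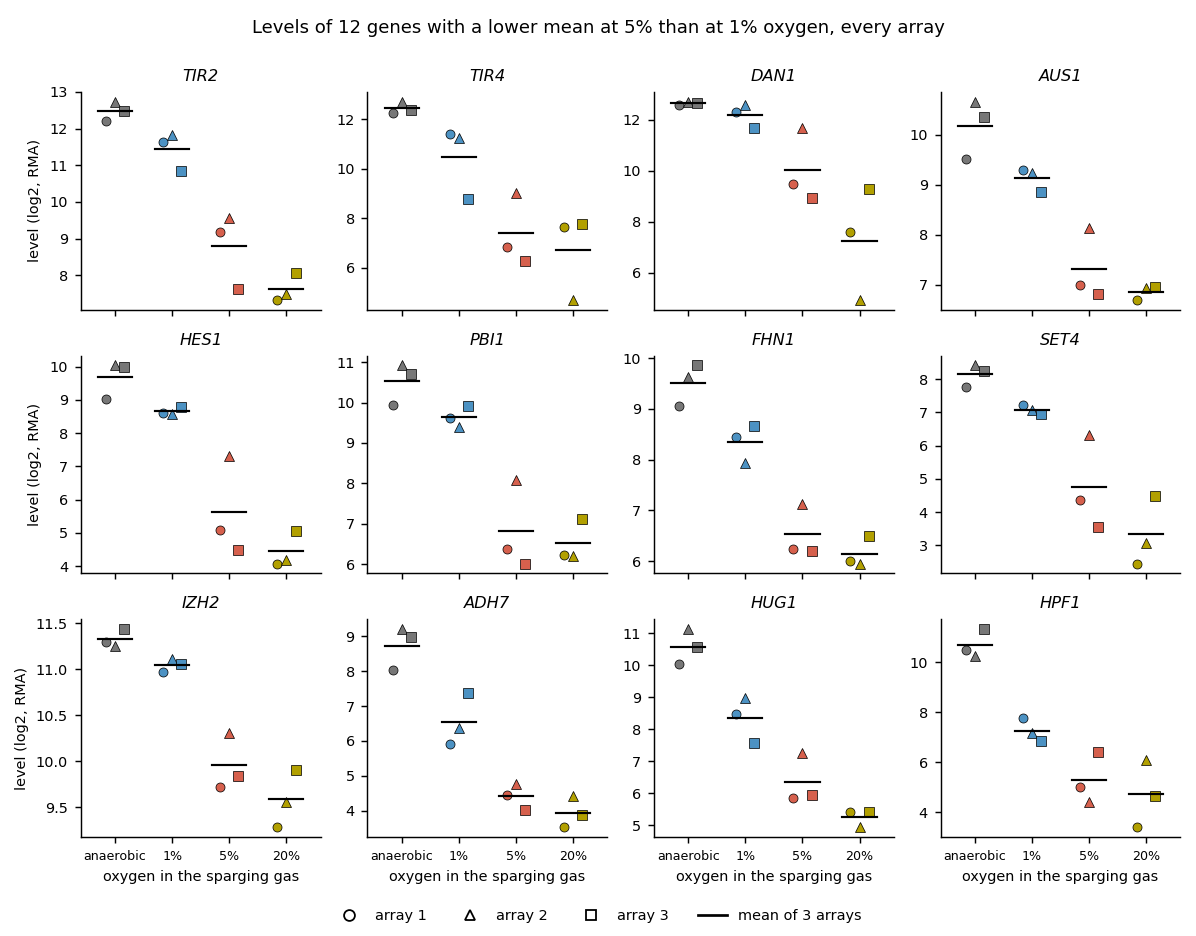
Level of 12 genes whose mean was lower at 5% than at 1% oxygen (vertical axis, log2 as deposited) by oxygen in the gas, from anaerobic to 20%. Each symbol is 1 array and each line a mean of 3 arrays. In 10 of the panels the 5% arrays lie below all 1% arrays. The genes were chosen with their values known, so this separation follows from the choice, and 3.65% of all genes have it. In TIR4 and DAN1 the highest 5% array, array 2, lies above the lowest 1% array, array 3.

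Among genes with a higher mean at 5% oxygen, PHO84 and FLO1 had the smallest p. PHO84, the high-affinity phosphate transporter, had 5.65, 6.70 and 6.25 at 5% oxygen against 4.31, 2.66 and 3.94 at 1% oxygen. The groups were well separated, and the difference was 2.57 ± 0.59 (adjusted p = 0.479). PHO84 was dim by its mean over all arrays, and its 1% values and 5% array 1 lay under the dim limit. MIR1, the carrier that brings phosphate into mitochondria, had 10.26, 9.69 and 9.94 at 5% oxygen against 9.31, 9.43 and 8.59 at 1% oxygen. It differed by 0.85 ± 0.24 with no overlap (adjusted p = 0.884). Of 16 phosphate genes 13 were higher and 3 lower at 5% oxygen, with a median of 0.25 and 2 genes without overlap upward (PHO81 and PHO84) and 1 downward (PHO5), against 6.57% and 3.65% of all genes. ZRT1, the high-affinity zinc transporter, had 9.27, 9.18 and 10.13 at 5% oxygen against 8.86, 8.36 and 7.75 at 1% oxygen, a difference of 1.20 ± 0.36 without overlap (adjusted p = 0.884). SUL1, a sulfate permease, was dim and differed by 2.31 ± 1.19, and its standard error was the largest among the genes named here.

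FLO1, a flocculin that binds cells together, had 5.04, 4.95 and 4.28 at 5% oxygen against 3.17, 1.81 and 3.70 at 1% oxygen. The groups did not overlap, and all 6 values lay under the dim limit (1.86 ± 0.41, adjusted p = 0.375). FLO9, a related flocculin, had 7.77, 8.32 and 7.15 at 5% oxygen against 6.96, 6.03 and 6.26 at 1% oxygen (1.33 ± 0.38, adjusted p = 0.884). FLO1 and FLO9 are close in sequence, so probes may not tell them apart, and they are best read as a family.

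Single genes of respiration, some named after their values were seen, also had higher means, while the respiratory lists described after them differed by little. CYC1, the main form of cytochrome c, had 8.42, 7.01 and 9.70 at 5% oxygen against 6.75, 5.47 and 6.43 at 1% oxygen. The lowest 5% array still lay above the highest 1% array, but the 5% arrays differed widely (2.17 ± 0.81, adjusted p = 0.884). CYB2, the lactate dehydrogenase that passes electrons to cytochrome c, had 7.37, 6.004 and 7.01 at 5% oxygen against 4.41, 3.78 and 5.75 at 1% oxygen (2.15 ± 0.99). SUE1, which is needed to degrade unstable cytochrome c, had 6.51, 6.41 and 6.01 at 5% oxygen against 4.26, 2.84 and 5.56 at 1% oxygen (2.09 ± 0.87). SUE1 was dim, and all 1% values of SUE1 and CYB2 lay under the dim limit. NDE1, an NADH dehydrogenase on the outer face of the inner membrane, had 6.97, 6.64 and 7.21 at 5% oxygen against 5.16, 4.75 and 6.34 at 1% oxygen (1.52 ± 0.64). In CYB2, SUE1 and NDE1 the groups did not overlap, and 1% array 3 was the highest of its group in each. In the same genes anaerobic array 1, at 7.57 for CYB2, 6.87 for SUE1 and 7.79 for NDE1, lay well above the other anaerobic arrays, which were between 3.06 and 5.09. MLS1, which makes malate in the glyoxylate cycle, had 7.89, 7.85 and 8.10 at 5% oxygen against 6.96, 7.58 and 5.29 at 1% oxygen (1.34 ± 0.44, and 0.68 without 1% array 3). POT1, the thiolase of peroxisomal fatty acid oxidation, went the other way, with 4.83, 4.36 and 4.46 at 5% oxygen against 4.92, 5.33 and 7.98 at 1% oxygen. POT1 was dim, and its difference was -1.52 ± 0.69, and -0.57 without 1% array 3, which lay far above the other arrays.

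As groups, the respiratory lists differed by little. In the list of complex III, complex IV and cytochrome c genes, 16 of 18 were higher at 5% oxygen, with a median of 0.31 and 2 without overlap (COR1 and CYC1), against 6.57% of all genes. The list's median level was 10.02, 9.77 and 10.21 in the 5% arrays against 9.70, 9.31 and 10.31 in the 1% arrays, so the groups overlapped. That median ranged from 0.02 to 0.51 when any 1 array was left out, with the lowest value without 1% array 2 and the highest without 1% array 3. Of 14 genes of the tricarboxylic acid cycle, 12 were higher, 4 of them without overlap (ACO1, KGD2, LSC1 and LSC2), against 6.57% of all genes, and the median was 0.28. KGD2, a subunit of the 2-oxoglutarate dehydrogenase, differed by 0.60 ± 0.21. Complex II and the NADH dehydrogenases had a median of 0.22 over 7 genes, which was 0.71 without 1% array 3. Among 15 ATP synthase genes 5 were higher and 10 lower, with a median of -0.04 that ranged from -0.18 without 1% array 2 to 0.15 without 1% array 3. None of the members of these lists was called.

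**Figure D3:**
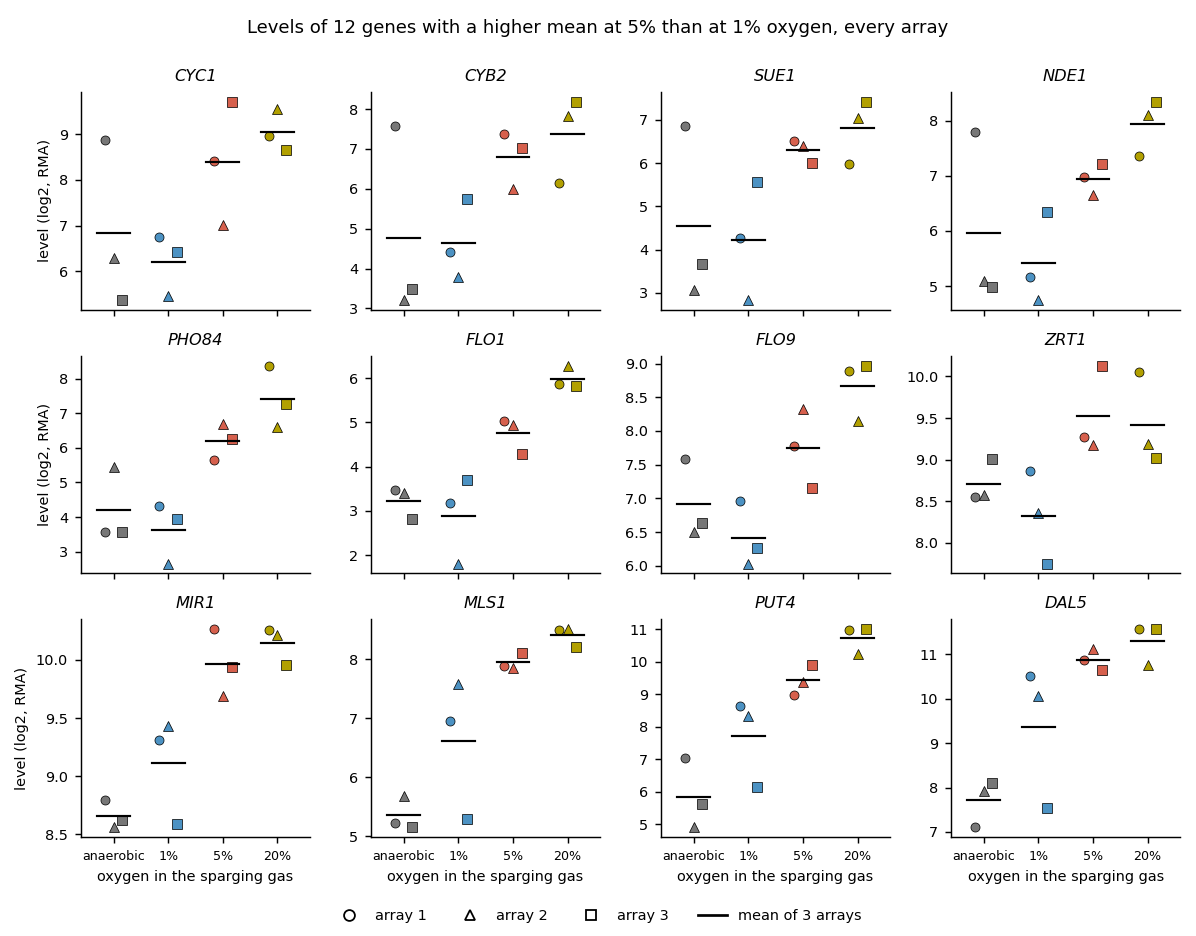
Level of 12 genes whose mean was higher at 5% than at 1% oxygen (vertical axis, log2 as deposited) by oxygen in the gas, from anaerobic to 20%. Each symbol is 1 array and each line a mean of 3 arrays. The 5% arrays lie above all 1% arrays in every panel. The genes were chosen with their values known, so this separation follows from the choice, and 6.57% of all genes have it. In CYB2, SUE1 and NDE1 anaerobic array 1 lies far above the other anaerobic arrays.

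Isoform pairs are tied to the heme-dependent switch, since each has a form favoured in air and a form favoured without it. ANB1, the hypoxic form of translation factor eIF5A, had 10.88, 10.93 and 11.50 at 5% oxygen against 11.62, 11.70 and 11.64 at 1% oxygen. The groups did not overlap, and the difference was -0.55 ± 0.22. Its aerobic partner HYP2 differed by 0.26 ± 0.16, also without overlap. COX5B, the hypoxic form of a cytochrome c oxidase subunit, had 8.66, 8.79 and 8.61 at 5% oxygen against 8.97, 9.10 and 9.74 at 1% oxygen (-0.58 ± 0.24). COX5A, the aerobic form, had 10.72, 10.54 and 11.11 at 5% oxygen against 10.13, 9.73 and 10.69 at 1% oxygen, with overlap (0.61 ± 0.33). For the ADP/ATP carriers, hypoxic AAC3 differed by -0.42 ± 0.31 and aerobic PET9 by 0.51 ± 0.26. CYC7, the minor form of cytochrome c, differed by -0.21 ± 0.68 beside the 2.17 of CYC1. The adjusted p was at least 0.884 for each of these genes. Without 1% array 2 the difference was 0.38 for COX5A and -0.26 for AAC3, and without 1% array 3 it was -0.35 for COX5B and 0.37 for CYC7. Against anaerobic cultures COX5B differed by 0.63 at 1% oxygen and by 0.05 at 5% oxygen. The same values were -0.11 and 0.15 for HYP2, -0.63 and 1.53 for CYC1, and 0.06 and -0.16 for CYC7. They grew in 1 direction for ANB1 (-0.46 and -1.01), AAC3 (-0.85 and -1.27), COX5A (1.03 and 1.63) and PET9 (0.12 and 0.63). In the list of 14 hypoxic isoforms and markers, 12 were lower at 5% oxygen (median -0.29, 3 without overlap). That list also holds the gene of the repressor Rox1, which differed by 0.10. All 5 aerobic partners were higher (median 0.61, 3 without overlap). Over all genes 2389 were lower and 3060 higher, with 3.65% without overlap downward and 6.57% upward.

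Regulators of the oxygen response and the pathways that use oxygen as a substrate had medians near 0. HEM13, the oxygen-requiring coproporphyrinogen oxidase of heme synthesis, had 7.90, 7.24 and 7.81 at 5% oxygen against 8.63, 9.36 and 7.87 at 1% oxygen. Array 3 of 1% oxygen lay between 5% arrays, and the difference was -0.97 ± 0.41 (adjusted p = 0.884), which was -0.60 without 1% array 2. The 8 heme synthesis genes had 4 higher and 4 lower members and a median of 0.02, from -0.09 without 5% array 3 to 0.11 without 1% array 3. ROX1 had 6.99, 7.15 and 5.92 at 5% oxygen against 7.74, 7.40 and 4.62 at 1% oxygen. Its 1% arrays spanned the 5% arrays, so the difference of 0.10 ± 0.92 had no stable sign, and it was -0.89 without 1% array 3. HAP1 differed by -0.17 ± 0.20 and HAP4, the activating subunit of the Hap complex, by 0.29 ± 0.42. Of 16 regulators of oxygen, heme and sterol response, 7 were higher and 9 lower at 5% oxygen (median -0.08), and UPC2 and SET4 were the 2 without overlap, both lower, against 3.65% of all genes. The regulator median ranged from -0.33 without 1% array 3 to 0.05 without 1% array 1, and UPC2 and SUT1 are also members of the sterol uptake list. Ergosterol synthesis genes numbered 25, with 10 higher and 15 lower at 5% oxygen and a median of -0.10, from -0.18 without 5% array 2 to -0.011 without 5% array 3. ERG11, the lanosterol demethylase, differed by 0.15 ± 0.19, and OLE1, the fatty acid desaturase, by -0.31 ± 0.23.

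The PAU genes are a family of near-identical seripauperin cell wall genes, so they are described together. At 5% oxygen 12 of 13 were lower, with a median difference of -0.51, and 2 had no overlap (PAU2 and PAU24), against 3.65% of all genes. PAU23 and PAU24 are also members of the sterol uptake list, so PAU24 is counted in both. The family's median was -0.19 without 1% array 2 and -0.73 without 1% array 3. PAU24 had 4.50, 5.30 and 4.29 at 5% oxygen against 6.05, 6.66 and 6.39 at 1% oxygen, the largest difference in the family. The same family fell in cultures with 1% oxygen against anaerobic ones. There all 13 were called lower, against 11.2% of all genes (608 called lower and 287, or 5.27%, called higher), with a median of -2.41. That step shares the 1% arrays with the comparison of 5% with 1% oxygen.

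Whether a gene differed mainly beyond 1% oxygen or mainly below it can be read from the successive steps side by side, with the caution that neighbouring steps share arrays. TIR2 differed by -1.03 between 1% oxygen and anaerobic cultures (adjusted p = 0.116), by -2.64 between 5% and 1% oxygen, and by -1.17 between 20% and 5% oxygen. HES1 had steps of -1.03, -3.04 and -1.18, PBI1 of -0.89, -2.82 and -0.30, and IZH2 of -0.28, -1.09 and -0.37. In these genes the middle step had the largest estimate. They were named for their small p at that same step, so a large middle step follows in part from the choice. DAN1 had its largest estimates later, with steps of -0.46, -2.16 and -2.77. That its last step exceeded the middle one rested on 20% array 2, with 20% arrays at 7.58, 4.93 and 9.27. HEM13 had its largest estimate at the first step, -2.52 (adjusted p = 0.00939), then -0.97 and -1.14. So did HPF1, with -3.42 (adjusted p = 0.0113), -1.99 and -0.55. ADH7 (-2.18 and -2.14) and HUG1 (-2.24 and -1.99) had first and middle steps of like size, and the first was called in each (adjusted p = 0.0113 and 0.0116). Among the genes with higher means, PHO84 had steps of -0.56, 2.57 and 1.22, FLO1 of -0.34, 1.86 and 1.23, and CYC1 of -0.63, 2.17 and 0.67. The anaerobic arrays of CYC1 were 8.88, 6.29 and 5.38 (mean 6.22 at 1% oxygen), so the sign of its first step depended on array 1. That of PHO84 depended on anaerobic array 2 (3.57, 5.44 and 3.56, against a mean of 3.63 at 1% oxygen). PUT4, a proline permease, had steps of 1.86, 1.72 and 1.32, and MLS1 had 1.26, 1.34 and 0.46. The order of their first and middle steps depended on 1% array 3, the lowest 1% array (6.16 for PUT4, 5.29 for MLS1). Without it the middle step was 0.94 for PUT4 and 0.68 for MLS1, and the first step would be larger.

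The difference between the middle and the first step was tested directly over all genes. limma called 0 of 5449 genes, with a smallest adjusted p of 0.26 and 894 genes at an unadjusted p under 0.05. The orders given for TIR2, HES1, PBI1, IZH2, HEM13 and HPF1 are therefore orders of estimates. The 1% arrays enter that test with opposite signs in both steps, so an error in their mean moves the steps in opposite directions. The middle and last steps were not compared by a test, so the order given for DAN1 is also one of estimates.

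**Figure D4:**
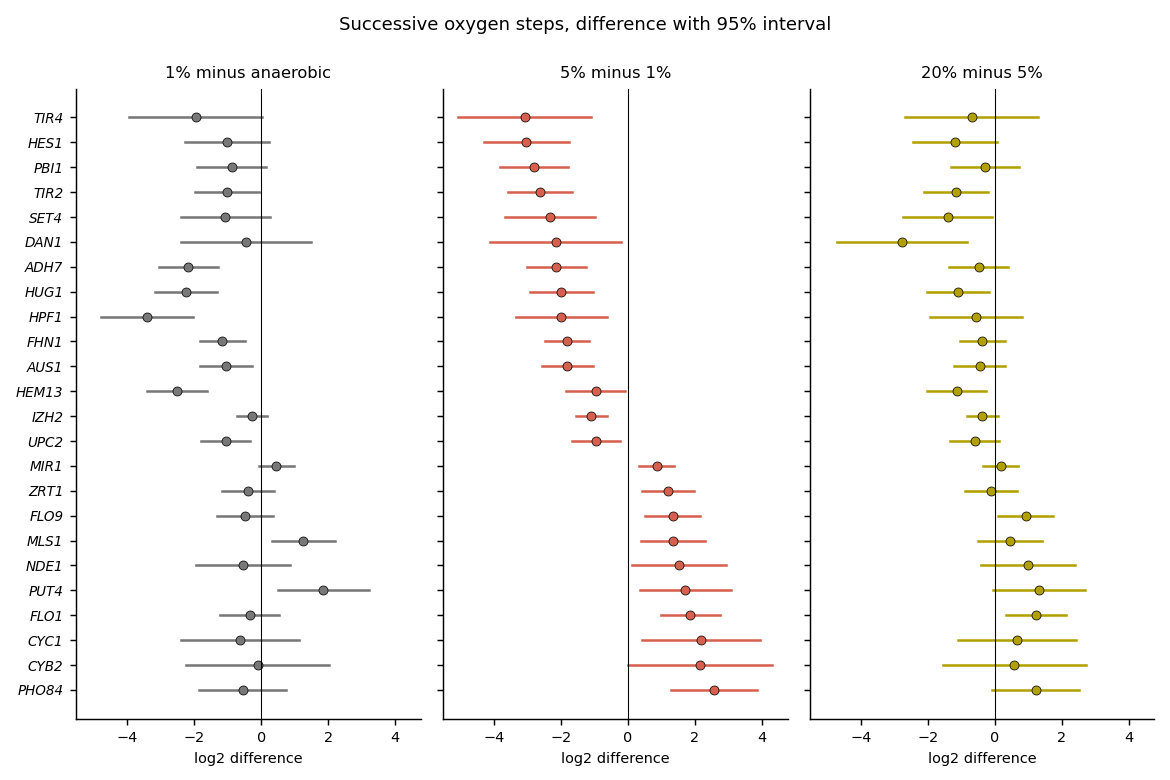
Differences with 95% intervals for 24 genes over the successive steps of oxygen in the gas (panels from left to right, 1% minus anaerobic, 5% minus 1% and 20% minus 5%, log2). Points are differences of means of 3 arrays each. TIR2, HES1, PBI1 and IZH2, which were named for their small p at the middle step, have their largest estimate in the middle panel. HEM13 and HPF1 have theirs in the left one, and neighbouring panels share 3 arrays.

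A comparison that shares no array with these groups is that of 20% oxygen with anaerobic cultures, though all arrays were normalised together and share the estimate of spread. In it limma called 253 genes lower at 20% oxygen (4.64%) and 178 higher (3.27%). The 16 genes at least 2-fold lower at 5% oxygen without overlap were all lower there too, and 15 of them were called, among them TIR2 (-4.84), HES1 (-5.24), SET4 (-4.81) and IZH2 (-1.74). POT1 was the exception (-1.61, adjusted p = 0.168). The 22 genes at least 2-fold higher without overlap were all higher there, and 12 were called, among them PHO84 (3.23), FLO1 (2.75), PUT4 (4.89) and MLS1 (3.06). CYC1 (2.21), CYB2 (2.63), SUE1 (2.28), NDE1 (1.98) and ZRT1 (0.71) were not called there. Of all genes without overlap, whatever their size, 277 of 358 higher genes (77.4%) and 139 of 199 lower genes (69.8%) had the same sign in it. Over all genes the shares were 61.1% of 3060 higher and 54.2% of 2389 lower. Anaerobic array 1 was the highest of the anaerobic arrays in 14 of the 22 higher genes.

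Lists of nutrient uptake and amino acid synthesis had small medians. Among 29 genes under nitrogen catabolite repression the median was 0.09, with 4 higher without overlap (DAL5, PUT1, PUT2 and PUT4) and 1 lower (CAR1), against 6.57% and 3.65% of all genes. That median had no stable sign, at -0.13 without 1% array 3 and 0.19 without 1% array 1. PUT4 had 8.99, 9.39 and 9.90 at 5% oxygen against 8.65, 8.33 and 6.16 at 1% oxygen (1.72 ± 0.63). The allantoate permease gene DAL5 had 10.87, 11.12 and 10.66 at 5% oxygen against 10.52, 10.06 and 7.53 at 1% oxygen (1.51 ± 0.61). In both genes 1% array 3 lay far below the other 1% arrays, which were nearer to the 5% arrays. Without 1% array 3 the difference was 0.94 for PUT4 and 0.59 for DAL5. Of 24 iron and copper uptake genes 19 were higher (median 0.30, 5 without overlap, against 6.57% of all genes). The median was 0.10 without 1% array 3, 0.14 without 5% array 2 and -0.12 without both. HMX1, a heme oxygenase, had 8.27, 9.28 and 8.37 at 5% oxygen against 7.61, 6.93 and 6.25 at 1% oxygen (1.71 ± 0.86). Of 22 genes for arginine, lysine and leucine synthesis 21 were higher at 5% oxygen, 4 of them without overlap, against 6.57% of all genes, with a median of 0.36 that was 0.18 without 1% array 3. Of 13 thiamine genes 11 were higher, with a median of 0.39 that was 0.03 without 1% array 3.

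Ribosome biogenesis genes were the most one-sided of the large lists, with 76 of 78 higher at 5% oxygen and a median of 0.46. Only RRP5, a factor for processing of ribosomal RNA, had no overlap, which is 1 gene of 78 against 6.57% of all genes. The list's median level was 6.84, 7.51 and 7.45 in the 5% arrays against 7.23, 6.99 and 6.29 in the 1% arrays, and it was 1% array 3 that lay lowest. Without that array the median difference was 0.14. Cytosolic ribosomal protein genes did not share this, with 52 higher and 75 lower of 127 and a median of -0.03, and the 69 mitochondrial ribosomal protein genes had a median of 0.11, from 0.0043 without 5% array 3 to 0.39 without 5% array 2. RPA43, a subunit of RNA polymerase I, differed by 0.84 ± 0.25, and RBA50, an assembly factor of RNA polymerase II, by 0.73 ± 0.23, both without overlap (adjusted p = 0.884 each). The ribosome biogenesis list had a median difference of -0.77 between 1% oxygen and anaerobic cultures and of -0.23 between 20% oxygen and anaerobic cultures. RPA43 (-0.70) and RBA50 (-0.56) were also lower at 1% oxygen than in anaerobic cultures. At 5% oxygen they differed from anaerobic cultures by 0.15 and 0.17. The values of 1% oxygen against anaerobic cultures also use 1% array 3, the lowest 1% array for the list, for RPA43 (6.18) and for RBA50 (7.02). Without that array RPA43 and RBA50 differed by 0.57 and 0.62 between 5% and 1% oxygen. The list's median against anaerobic cultures was not computed without it.

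**Figure D5:**
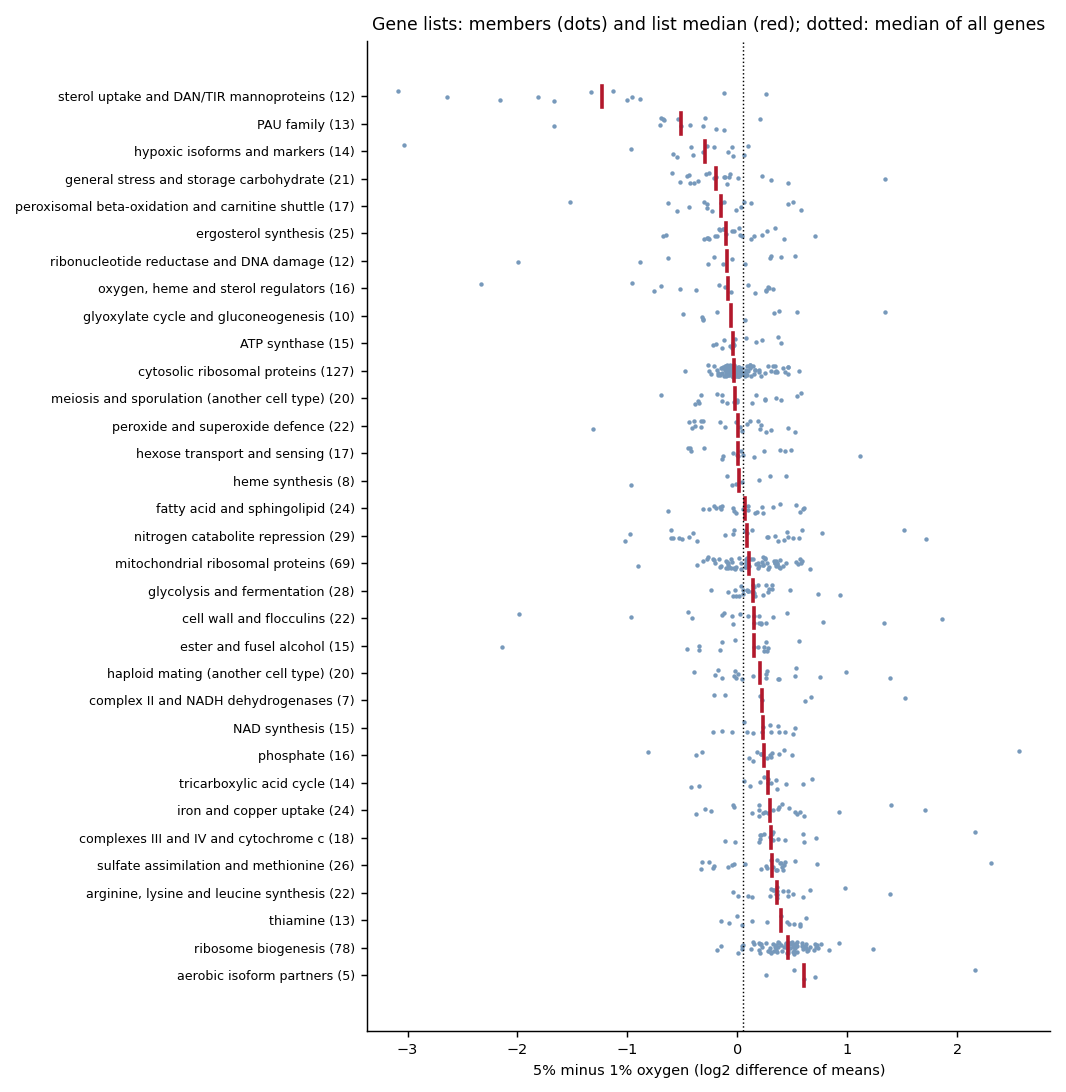
Difference between 5% and 1% oxygen (horizontal axis, log2 difference of means) for the members of each gene list (grey-blue points), with the list's median in red and the number of genes tested in brackets. The dotted line is the median of all genes. The sterol uptake and mannoprotein list has the lowest median, -1.23, and the aerobic isoform partners the highest, 0.61.

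Markers of other cell types and states were checked beside these results. Of 20 haploid mating genes 18 were dim, 2 were higher at 5% oxygen without overlap (MFA1 and MF(ALPHA)1, the mating pheromone genes), against 6.57% of all genes, and 4 were higher at an unadjusted p under 0.05, against 2.92%. The mating median was 0.20, and ranged from -0.03 without 1% array 2 to 0.49 without 1% array 3. MF(ALPHA)1 averaged 5.95 ± 0.34 at 5% oxygen and 4.57 ± 0.63 at 1% oxygen. Of 20 genes of meiosis and sporulation 17 were dim, none was without overlap, and the median was -0.02, from -0.13 without 1% array 1 to 0.23 without 1% array 3. In RNA of whole cultures, fewer cells of a type and less RNA per cell cannot be told apart, and the part of such cells in the results was not tested.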

How the data were processed

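The authors deposited log2 values of 5716 probe sets, between 0.32 and 13.68, from total RNA on 12 Affymetrix arrays. Per the submitters' processing notes the values were made with RMA, with a version not given in the sources used here. The log2 scale was inferred from that range. The number of arrays limits the precision. The platform annotation gave 1 gene for 5498 probe sets and none for 218, all identifiers matched the RefSeq gene table, and 12 symbols were updated. Of several probe sets of a gene (47 genes) the one with the highest mean was kept.

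With limma 3.58.1 (R 4.3.3), group means were estimated in a single fit of the 12 arrays (8 residual and 4.11 prior degrees of freedom). P-values were adjusted by Benjamini-Hochberg over all 5449 genes. Dim genes were the lowest 25% by mean level (1362 genes under 5.84) and stayed in the test. The fit was tested on simulated data.

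The comparison, gene lists and named genes were chosen with earlier results of these data known. The rule for named genes takes called genes and, where fewer than 8 in a direction are called, those with the smallest p that have no overlap, a symbol that is no systematic name, no PAU name and a higher mean above the dim limit, up to 8. It adds a fixed oxygen set and the member of each list with the smallest p. Other genes named were chosen after their values were seen, among them TIR3, TIR4, DAN4, PDR11, CYB2, SUE1, DAL5, HMX1, IZH4, POT1, SHC1 and YBL111C. Same-numbered arrays of the groups did not deviate together (correlations of -0.22, -0.05 and -0.03), so numbers were not taken as pairs.

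Alternatives were a replicate block, array weights, a robust or trended prior, median or quantile scaling, dropping dim genes, averaging or keeping all probe sets, fits of fewer groups, a 2-fold minimum, removal of a trend on gene length, and leaving out arrays.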

Additional observations from a re-analysis of the deposited data

How the results depend on the processing

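The count of 0 called genes held under quantile and median scaling, without dim genes, with the mean of probe sets or all probe sets, with a trended or robust prior, without the trend on gene length, and in fits of only the 6 arrays or of the 9 oxygenated arrays. In the limma fit of only the 6 arrays the smallest adjusted p was 0.894, against 0.12 in the main fit. With the replicate block 0 genes were called (smallest adjusted p 0.146), and 199 had an unadjusted p under 0.05. Leaving out each of the 6 arrays gave 0 to 6 called genes (0 to 6 lower, 0 to 0 higher), and 215 to 410 at an unadjusted p under 0.05. The 6 came without 5% oxygen array 2. Array weights, whose estimation did not converge, gave 2 called genes, both lower (TIR2 and YBL111C), and 502 at an unadjusted p under 0.05. Without 1% oxygen array 3 and 5% oxygen array 2, chosen after seeing the data, 7 were called, 6 lower and 1 higher. The unadjusted count was 166 in the fit of the 2 groups alone, 175 with the 9 oxygenated arrays and 42 with a 2-fold minimum. The cause of these shifts was not tested, though fewer arrays and a size minimum lower such counts by construction. Of 1301 alternative values for 73 named genes, 15 gained a call and 10 changed sign. ROX1 (0.10) was -0.55 with array weights, -1.12 without the 2 arrays, and -0.89 to 0.67 leaving out 1 array. CYC7 (-0.21) was 0.30 without the 2 arrays and -0.83 to 0.37 leaving out 1, ERG11 (0.15) was -0.0893 without the 2 arrays, SUT1 (0.26) was -0.14 with array weights, and HAP1 (-0.17) was -0.2721 to 0.0094 leaving out 1. The difference between steps had 0 called genes without each 1% array (smallest adjusted p 0.08 to 0.457). Genes without overlap had the same sign in 20% oxygen against anaerobic for 416 of 557, and for 420 with quantile scaling. They were used because no gene was called.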
